A study of Mus musculus with 16 samples.

Results

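The genes described here encode components and regulators of the complement system in mouse lung: the 3 chains of C1q (C1qa, C1qb and C1qc), the central component C3, the component C4b, the alternative pathway protease factor B (Cfb), and the receptors for the fragments C3a and C5a (C3ar1 and C5ar1). They were taken by gene symbol from the platform annotation, using only probe sets that carry a single symbol and, for each gene, the probe set with the highest mean over the 16 arrays. Of the 8 genes, 6 have such a probe set, and all 6 are among the 12369 genes tested. No probe set is named for C3 here, and C4b shares its 1 probe set with C4a, so neither has a value. The probe sets were thus chosen by their mean over all arrays, which ignores the groups; these means were 9.72 for C1qa, 8.59 for C1qb, 8.96 for C1qc, 7.75 for Cfb, 6.87 for C3ar1 and 6.19 for C5ar1 on the log2 scale. The genes themselves were picked with earlier results of these data known, so the shares given below describe them and are not an independent test.

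Complement is a cascade of plasma and tissue proteins that labels particles, microbes and dying cells for uptake. The classical pathway starts when C1q binds its target, the lectin pathway starts from collectins and ficolins, and the alternative pathway amplifies deposited C3b through factor B. All lead to cleavage of C3 and C5, whose small fragments attract and activate leukocytes through C3ar1 and C5ar1. In tissues C1q is made mainly by macrophages, and airway and alveolar epithelial cells are known sources of several other components.

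The RNA came from whole lungs of female mice of the inbred laboratory strain BALB/c and was hybridised to 1-colour Affymetrix arrays. The 4 groups of 4 arrays were pregnant mice given TiO2, pregnant mice given PBS, non-pregnant mice given TiO2 and non-pregnant mice given PBS. TiO2 is titanium dioxide dust of respirable size, heated to remove endotoxin and given once into the nose as a 50 ug dose, PBS is its saline vehicle, RNA was taken 19 hours later, and the pregnancies were at gestation day 14. The stated question was whether pregnancy alters the usually small inflammatory response to such inert particles. The labels do not say whether each array is 1 mouse, so p-values measure the spread between these samples.

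Values are log2(intensity + 16) after quantile normalization, with mean ± SD (n = 4) per group. Changes carry the standard error of a limma fit over all genes (SE), and "called" means an adjusted p under 0.05. Where 1 group is set apart from several others at once, the share of all genes doing so was not counted. Before normalization the trimmed mean signal ran from 137 to 264 between arrays. Lung epithelial markers averaged between 12.17 and 12.39 on every array, and a list of liver genes stayed between 4.45 and 4.84. Some arrays stand apart. Non-pregnant PBS replicates 3 and 4 carried thymus transcripts, pregnant TiO2 replicate 2 was low in squamous epithelial and striated muscle transcripts, and non-pregnant PBS replicate 2 has 1 label that calls it pregnant and another that calls it non-pregnant. On the low array the squamous list averaged 5.04 and the muscle list 7.44, although the heart muscle genes Myh6 and Myl7 were at 11.00 or above on all 16 arrays. Fat markers varied from 7.17 to 10.15 in mean level between arrays. For pregnancy after TiO2 the count of calls is also given without the 3 arrays of unlike thymus, squamous or muscle content. For several results the array of conflicting labels is also counted as pregnant PBS.

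Pregnant lungs exposed to TiO2 carried more of 4 complement transcripts than non-pregnant lungs exposed to TiO2. In that comparison C1qa, C1qb, C1qc and Cfb rose by 1.37 to 1.61-fold, and all 6 measured genes had a change above 0. Of all genes 1.37% were called higher there and 55.6% had a change above 0. With intensities as deposited none of the 6 was called, and leaving out 1 array gave 1 to 4 calls. For TiO2 against PBS limma called 0 of 12369 genes, in pregnant and in non-pregnant mice, and so none of these. For pregnancy after PBS none of the 6 was called, where 1.04% of all genes were, and the difference between the TiO2 responses was not called for any gene. Averaged over both exposures, C1qb, C1qc, Cfb and C3ar1 were called higher in pregnant mice, where 3.19% of all genes were. None of these calls remained with intensities as deposited.

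The C1q chains come from neighbouring genes on chromosome 4 in GRCm38.p6. Since the 3 genes are adjacent and had similar changes, the promoters of those with an entry in the RefSeq promoter table are shown, 250 bases before to 50 after the gene start, in the C57BL/6J reference of GRCm38.p6. Capitals mark the motifs that were found. C1qb lies at chr4:136886151-136886450 and C1qc at chr4:136892865-136893164, both read on the minus strand.
C1qb: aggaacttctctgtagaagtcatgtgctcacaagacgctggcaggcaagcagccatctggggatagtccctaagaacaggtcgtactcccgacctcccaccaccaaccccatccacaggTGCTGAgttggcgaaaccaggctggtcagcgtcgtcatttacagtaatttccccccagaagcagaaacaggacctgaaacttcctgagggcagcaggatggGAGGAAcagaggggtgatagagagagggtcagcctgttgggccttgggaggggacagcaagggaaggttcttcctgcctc
C1qc: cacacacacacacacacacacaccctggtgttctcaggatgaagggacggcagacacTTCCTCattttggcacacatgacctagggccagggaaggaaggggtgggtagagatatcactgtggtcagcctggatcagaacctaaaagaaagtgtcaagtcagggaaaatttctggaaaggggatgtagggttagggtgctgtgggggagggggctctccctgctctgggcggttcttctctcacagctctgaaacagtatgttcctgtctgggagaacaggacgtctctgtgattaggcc
Of 6 genes looked up, 4 had an entry (C1qb, C1qc, C3ar1 and C5ar1).

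4 motifs were searched on both strands: GAGGAA, the core bound by the macrophage factor PU.1; TGCTGA, an arm of the element bound by Maf factors; the interferon response element, GAAA followed after any 2 bases by another GAAA; and the STAT element TTCNNNGAA. The C1qb promoter held GAGGAA with its first base at -30 and TGCTGA at -131 from the gene start. The C1qc promoter held GAGGAA on the opposite strand, with the leftmost printed base at -193. GAGGAA is present in 28.3% of the 32851 promoters of this length and TGCTGA in 19.5%. The interferon element and TTCNNNGAA, held by 3.44% and 8.3% of promoters, had no match in the 4 windows. These matches describe letters only.

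C1qa encodes the A chain of C1q. Its log2 values were 9.96, 9.95, 10.02 and 10.15 in pregnant TiO2 lungs, 9.59, 9.60, 9.61 and 9.68 in pregnant PBS lungs, 9.53, 9.43, 9.58 and 9.61 in non-pregnant TiO2 lungs, and 9.95, 9.52, 9.54 and 9.82 in non-pregnant PBS lungs. The 4 pregnant TiO2 arrays lay above all pregnant PBS and all non-pregnant TiO2 arrays, while non-pregnant PBS replicate 1 reached the lowest of them. The group levels were 10.02 ± 0.09 in pregnant TiO2, 9.62 ± 0.04 in pregnant PBS, 9.54 ± 0.08 in non-pregnant TiO2 and 9.71 ± 0.21 in non-pregnant PBS. The last 3 groups did not differ from each other beyond their spread.

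C1qb encodes the B chain. It stood at 8.92, 8.73, 8.88 and 8.93 in pregnant TiO2 lungs, 8.57, 8.52, 8.58 and 8.76 in pregnant PBS lungs, 8.48, 8.29, 8.32 and 8.54 in non-pregnant TiO2 lungs, and 8.65, 8.12, 8.60 and 8.58 in non-pregnant PBS lungs. Pregnant TiO2 arrays were above both non-pregnant groups and overlapped pregnant PBS through its replicate 4. The means were 8.86 ± 0.10 in pregnant TiO2, 8.61 ± 0.11 in pregnant PBS, 8.41 ± 0.12 in non-pregnant TiO2 and 8.49 ± 0.25 in non-pregnant PBS. The low array of the last group, replicate 2, is the one with conflicting labels.

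C1qc encodes the C chain. Its values were 9.11, 9.33, 9.28 and 9.22 in pregnant TiO2 lungs, 8.85, 8.89, 9.25 and 9.06 in pregnant PBS lungs, 8.76, 8.64, 8.70 and 8.80 in non-pregnant TiO2 lungs, and 8.85, 8.91, 8.89 and 8.83 in non-pregnant PBS lungs. Here both pregnant groups overlapped each other, and the non-pregnant TiO2 arrays were the lowest 4 of all 16. The share of all genes with a group set apart in this way was not counted. The means were 9.23 ± 0.10 in pregnant TiO2, 9.01 ± 0.18 in pregnant PBS, 8.72 ± 0.07 in non-pregnant TiO2 and 8.87 ± 0.03 in non-pregnant PBS.

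Cfb, on chromosome 17, encodes factor B, the protease subunit of the alternative pathway convertase. Its values were 8.27, 8.06, 8.20 and 8.51 in pregnant TiO2 lungs, 7.81, 7.75, 7.53 and 7.79 in pregnant PBS lungs, 7.46, 7.72, 7.52 and 7.56 in non-pregnant TiO2 lungs, and 7.94, 7.30, 7.36 and 7.18 in non-pregnant PBS lungs. All 4 pregnant TiO2 arrays were above the 12 others. How many of all genes show this was not counted. The means were 8.26 ± 0.19 in pregnant TiO2, 7.72 ± 0.13 in pregnant PBS, 7.57 ± 0.11 in non-pregnant TiO2 and 7.45 ± 0.34 in non-pregnant PBS. The last 3 overlapped, with non-pregnant PBS replicate 1 highest among their arrays.

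C3ar1, on chromosome 6, encodes the receptor for the anaphylatoxin C3a on myeloid cells. It is shown because, of C3ar1 and C5ar1, it was the gene called in the pregnancy average. Its promoter window, chr6:122856108-122856407 on the minus strand, held TGCTGA on the opposite strand, leftmost printed base at -144.
C3ar1: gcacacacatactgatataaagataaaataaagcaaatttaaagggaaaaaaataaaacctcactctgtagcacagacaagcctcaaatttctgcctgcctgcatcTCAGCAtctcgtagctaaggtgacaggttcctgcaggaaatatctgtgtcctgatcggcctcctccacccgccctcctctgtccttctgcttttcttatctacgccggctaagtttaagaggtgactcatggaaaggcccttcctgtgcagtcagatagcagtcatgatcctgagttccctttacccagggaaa
The gene's values were 6.99, 7.35, 7.10 and 7.07 in pregnant TiO2 lungs, 7.02, 7.08, 6.79 and 6.83 in pregnant PBS lungs, 6.53, 6.91, 6.61 and 6.88 in non-pregnant TiO2 lungs, and 6.71, 6.52, 6.83 and 6.70 in non-pregnant PBS lungs. Pregnant TiO2 arrays were above both non-pregnant groups but overlapped pregnant PBS. The means ran in the order 7.13 ± 0.16 in pregnant TiO2, 6.93 ± 0.14 in pregnant PBS, 6.73 ± 0.19 in non-pregnant TiO2 and 6.69 ± 0.13 in non-pregnant PBS, with neighbours in this order not separated beyond their spread.

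C5ar1, on chromosome 7, encodes the C5a receptor of neutrophils and macrophages. Its promoter window, not printed here, held TGCTGA with its first base at -17 from the gene start. The C5ar1 probe set was the dimmest of the 6 and lay above the array median on 13 of 16 arrays. Its values were 6.12, 6.50, 6.62 and 6.24 in pregnant TiO2 lungs, 6.28, 7.03, 6.50 and 5.95 in pregnant PBS lungs, 6.06, 5.55, 5.86 and 6.24 in non-pregnant TiO2 lungs, and 5.97, 5.91, 6.21 and 5.96 in non-pregnant PBS lungs. All 4 groups overlapped, and the 5 highest arrays were pregnant ones. The means were 6.37 ± 0.23 in pregnant TiO2, 6.44 ± 0.45 in pregnant PBS, 5.93 ± 0.29 in non-pregnant TiO2 and 6.01 ± 0.14 in non-pregnant PBS.

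**Figure D1:**
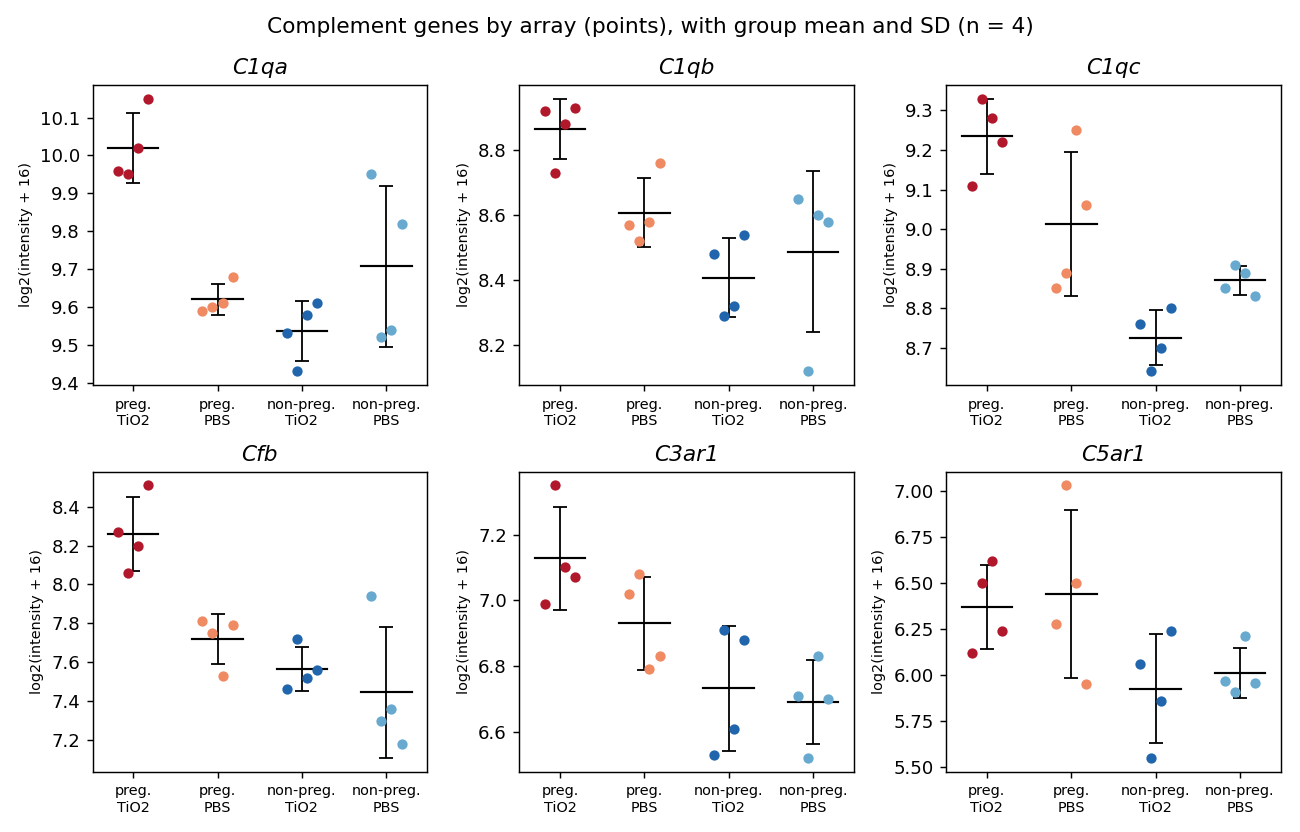
Normalized log2(intensity + 16) of the 6 measured complement genes, with 1 point per array, a line for the group mean and bars for the SD (n = 4). The 4 pregnant TiO2 arrays lie above every non-pregnant TiO2 array for all genes but C5ar1. The same holds for 9.56% of all genes tested.

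After TiO2, pregnancy was accompanied by higher C1q and factor B transcripts. C1qa was higher by 0.48 ± 0.09 log2 (1.40-fold, limma adjusted p = 0.0239), C1qb by 0.46 ± 0.11 (1.37-fold, adjusted p = 0.0466) and C1qc by 0.51 ± 0.09 (1.42-fold, adjusted p = 0.00994). Cfb rose by 0.69 ± 0.14 log2 (1.61-fold, adjusted p = 0.0264). The receptors were not called: C3ar1 was at 0.40 ± 0.11 (adjusted p = 0.0738) and C5ar1 at 0.44 ± 0.19 (adjusted p = 0.216).

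Thus 4 of 6 genes were called higher for pregnancy after TiO2, where 1.88% of all genes tested were called in either direction and 1.37% higher. For 5 of 6 genes all pregnant TiO2 arrays exceeded all non-pregnant TiO2 arrays, against 9.56% of all genes. All 6 changes were above 0, as were 55.6% of all genes. The median change of the 6 was 0.47 log2, and that of all genes 0.03. With intensities as deposited the 4 changes were 0.38, 0.34, 0.40 and 0.57 log2 and none was called, with 21 of 12369 genes called there. The count of called genes among the 6 was 1 without non-pregnant TiO2 replicate 1 or 3 or without pregnant TiO2 replicate 1 or 4, and 2 without non-pregnant TiO2 replicate 2 or 4. Without the 3 arrays of unlike tissue content it was 4. With the array of conflicting labels counted as pregnant PBS it was 3, since C1qb was at 0.46 with adjusted p = 0.0646. C1qb lost its call in 17 of 28 settings.

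In bulk tissue a rise of a transcript can come from more cells of a type or from more RNA per cell, and these cannot be told apart. Macrophage and monocyte markers (16 genes measured of 18 listed) had a mean level per array of 8.72 to 8.90 in pregnant TiO2 and 8.74 to 8.86 in pregnant PBS, against 8.43 to 8.53 in non-pregnant TiO2 and 8.42 to 8.67 in non-pregnant PBS. Their summed intensity ran from 18300 to 20800 in pregnant TiO2, 19500 to 20600 in pregnant PBS, 18400 to 20000 in non-pregnant TiO2 and 15900 to 19700 in non-pregnant PBS. No marker was at 0, but the scavenger receptor Marco, a marker of alveolar macrophages, averaged 6.19, 6.18, 4.32 and 5.12 in these groups in the same order, close to the floor of 4 in non-pregnant TiO2. For pregnancy after TiO2 the marker list had 13 of 16 genes above 0, a median of 0.27 log2 and 1 call, Marco at 1.87 ± 0.38 (limma adjusted p = 0.0255). Of all genes 55.6% were above 0 in that comparison, 1.37% were called higher and the median was 0.03. Fat markers varied more between arrays: their mean level per array (9 genes measured of 10) ran from 7.65 to 9.99 in pregnant TiO2 and 8.59 to 10.14 in pregnant PBS, against 7.17 to 9.06 in non-pregnant TiO2 and 8.82 to 10.15 in non-pregnant PBS. For pregnancy after TiO2 all 8 tested fat markers were above 0, with a median of 1.43 log2 and none called, and for TiO2 in non-pregnant mice their median was -1.62. Their interaction had a median of 1.34, with 8 of 8 above 0 and none called, where 53.3% of all genes were above 0. The parts of macrophage number and fat content in the C1q and Cfb results were not tested.

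After PBS the same comparison of pregnancy called 0 of 6 genes, where limma called 129 of 12369 (1.04%). C1qa was at -0.09 ± 0.09 log2, C1qb at 0.12 ± 0.11 and C1qc at 0.14 ± 0.09, with adjusted p of 0.794, 0.748 and 0.568. C1qa turned to 0.10 with intensities as deposited, where all genes had a median of 0.16, and C1qb turned to -0.10 with the array of conflicting labels counted as pregnant. Cfb stood at 0.27 ± 0.14, C3ar1 at 0.24 ± 0.11 and C5ar1 at 0.43 ± 0.19. The last 2 had an unadjusted p under 0.05 (2 of 6, against 11.9% of all genes) and adjusted p of 0.41 and 0.406. For none of the 6 did the pregnant PBS arrays all exceed the non-pregnant PBS arrays, as 3.46% of all genes did.

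Averaged over both exposures, 4 of 6 genes were called higher in pregnant mice, where 4.42% of all genes were called and 3.19% were called higher. C1qc rose by 0.33 ± 0.06 log2 (limma adjusted p = 0.00714), Cfb by 0.48 ± 0.10 (adjusted p = 0.0127), C3ar1 by 0.32 ± 0.08 (adjusted p = 0.0303) and C1qb by 0.29 ± 0.08 (adjusted p = 0.0482). C1qa, at 0.20 ± 0.07 (adjusted p = 0.11), and C5ar1, at 0.43 ± 0.14 (adjusted p = 0.0895), were not called. In this average no gene of the 6 had all 8 pregnant arrays above all 8 non-pregnant ones, as 0.542% of all genes did. Counting the array of conflicting labels as pregnant PBS left 1 of the 4 calls. The number was 0 with intensities as deposited and 2 with trimmed-mean scaling, without a filter, or without pregnant PBS replicate 1 or 2, non-pregnant TiO2 replicate 1 or 3 or non-pregnant PBS replicate 4. C1qb lost this call in 16 of 27 settings and C3ar1 in 11. In the test of any difference among the 4 groups limma's F called 3 of 6 genes, against 2.23% of all genes: Cfb (adjusted p = 0.0177), C1qc (0.0188) and C1qa (0.0397). That count was 0 with the same array counted as pregnant and also without pregnant TiO2 replicate 4, and 1 without pregnant TiO2 replicate 1 or 3 or non-pregnant TiO2 replicate 2 or 3.

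Of the macrophage and monocyte markers, 4 of 16 were called higher in the pregnancy average, against 3.19% of all genes. Their median was 0.18 log2, against 0.01 over all genes. Neutrophil markers also moved with pregnancy. Their mean level per array (13 genes measured of 16) was 8.06 ± 0.20 in pregnant TiO2 and 8.57 ± 0.24 in pregnant PBS, against 7.61 ± 0.18 in non-pregnant TiO2 and 7.73 ± 0.11 in non-pregnant PBS. In the pregnancy average 8 of the 12 tested markers were called higher, against 3.19% of all genes, with a median of 0.61 log2. Neutrophils carry both receptors, and their part in the C3ar1 and C5ar1 values was not tested. In pregnant mice the neutrophil markers had a median of -0.59 log2 for TiO2 against PBS, where C3ar1 was at 0.20 and C5ar1 at -0.07.

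For TiO2 against PBS in pregnant mice, 5 of 6 genes had changes above 0, as did 49.9% of all genes, and none was called. C1qa was at 0.40 ± 0.09 log2 (95% interval 0.20 to 0.60, unadjusted p = 0.000711, limma adjusted p = 0.399) and Cfb at 0.54 ± 0.14 (0.24 to 0.84, unadjusted p = 0.0016, adjusted p = 0.507). In these 2 genes the groups did not overlap, which held in the higher direction for 2.05% of all genes. C1qb stood at 0.26 ± 0.11 and C1qc at 0.22 ± 0.09, both with adjusted p = 0.762, and C3ar1 at 0.20 ± 0.11 (adjusted p = 0.791).

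At an unadjusted p under 0.05, 4 of these 6 genes passed in pregnant mice, against 6.43% of all genes. Limma called 0 of 12369 genes in this comparison, so the percentage of genes called was 0, with a lowest adjusted p of 0.257. C5ar1 was at -0.07 ± 0.19 (adjusted p = 0.953), and it was at 0.04 with the array of conflicting labels counted as pregnant and 0.02 with array weights. The macrophage and monocyte markers had 7 of 16 genes above 0 in this comparison and a median of 0.00 log2, with none called.

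In non-pregnant mice TiO2 against PBS gave 0 calls among the 6 and 0 of 12369 over all genes (0 percent), with 1223 genes (9.89%) at an unadjusted p under 0.05 and none of the 6 among them. The C1q chains had changes below 0 after normalization, with C1qa at -0.17 ± 0.09 (95% interval -0.37 to 0.03), C1qb at -0.08 ± 0.11 (-0.32 to 0.15) and C1qc at -0.15 ± 0.09 (-0.33 to 0.04), but with intensities as deposited they were 0.04, 0.12 and 0.06, where all genes shifted by a median of 0.17. Their adjusted p were 0.573, 0.854 and 0.598. For C1qc the TiO2 arrays all lay below the PBS arrays, as was true of 3.11% of all genes. Cfb was at 0.12 ± 0.14, C3ar1 at 0.04 ± 0.11 and C5ar1 at -0.09 ± 0.19, and each of these signs turned under at least 1 other setting.

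Whether the TiO2 response differed with pregnancy was tested as the interaction, the TiO2 change in pregnant mice minus that in non-pregnant mice. Of the 6 genes 0 were called, as were 0 of 12369 genes (0 percent), with a lowest adjusted p of 0.232. That lowest value was shared by C1qa, whose interaction was 0.57 ± 0.13 log2 (95% interval 0.28 to 0.85, unadjusted p = 0.000661, limma adjusted p = 0.232). C1qc stood at 0.37 ± 0.12 (adjusted p = 0.363), C1qb at 0.34 ± 0.16 (0.453), Cfb at 0.42 ± 0.20 (0.464) and C3ar1 at 0.16 ± 0.16 (0.735). C5ar1 was at 0.02 ± 0.28, with an interval from -0.57 to 0.60.

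All 3 C1q chains had an unadjusted p under 0.05 for the interaction, so 3 of 6 genes did, against 10.9% of all genes. The 6 changes were above 0, as were 53.3% of all genes, but with intensities as deposited C3ar1 and C5ar1 were at -0.08 and -0.21. In that setting the interaction was 0.28 for C1qa, 0.05 for C1qb, 0.08 for C1qc and 0.14 for Cfb, with adjusted p of 0.797 to 0.96 and a median of -0.25 over all genes. Averaged over pregnancy states, TiO2 called 0 of 6 and 0 of 12369 genes (0 percent). There Cfb was at 0.33 ± 0.10 log2 (unadjusted p = 0.00462, adjusted p = 0.584), and it was the only 1 of the 6 with an unadjusted p under 0.05, against 6.2% of all genes. The other 5 lay between -0.08 and 0.12.

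**Figure D2:**
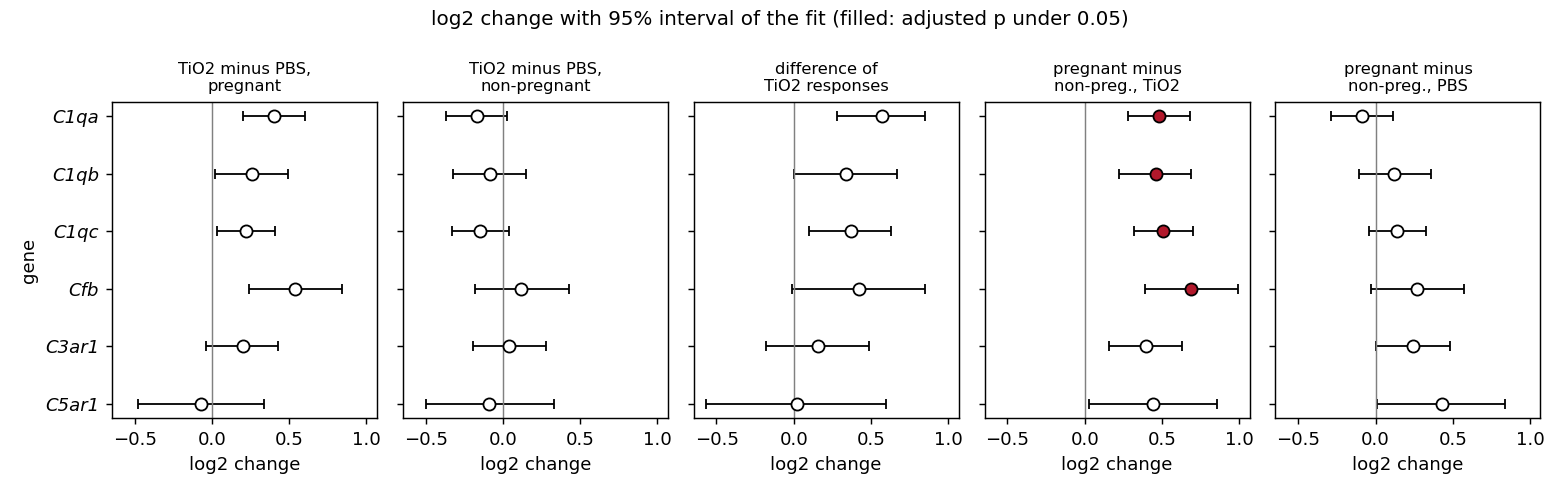
Log2 changes of the 6 genes in 5 comparisons, with the 95% interval of the limma fit; filled points have an adjusted p under 0.05. Filled points appear only for pregnant minus non-pregnant after TiO2, at 0.46 to 0.69; points below 0 for C1q chains in non-pregnant mice turn above 0 with intensities as deposited.

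Other probe sets of the same genes gave a check of the probe choice. Both further C1qb probe sets were higher in pregnant TiO2 than in non-pregnant TiO2, by 0.51 and 0.66 log2. In pregnant mice they stood 0.25 and 0.36 higher after TiO2 than after PBS, and in non-pregnant mice at -0.31 and -0.16. For C3ar1 the probe sets disagreed: one gave 0.27 for TiO2 in pregnant mice and -0.02 in non-pregnant mice, and the other gave -0.04 and 0.37. The second C5ar1 probe set, above the array median on 5 arrays, was at -0.14 for pregnancy after TiO2, opposite to the one used. With the mean of all probe sets per gene, the 4 calls for pregnancy after TiO2 were still 4 in number. C1qa, C1qc and Cfb have 1 probe set each, so among the called genes this setting could change the values of C1qb only.

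Across the 16 arrays C1qa and C1qb varied together, with Pearson's r = 0.816 (permutation p = 7e-05, adjusted 0.00028) and Spearman's rho = 0.894 (permutation p = 2e-05, adjusted 8e-05). Without the 2 arrays farthest from the median r was 0.728, and after subtraction of group means it was 0.628. C1qa and C1qc had r = 0.681 (permutation p = 0.00422, adjusted 0.00563) and rho = 0.653 (permutation p = 0.00779, adjusted 0.0104), with r = 0.545 without the 2 arrays. C1qb and C1qc had r = 0.696 (permutation p = 0.00274, adjusted 0.00548) and rho = 0.682 (permutation p = 0.00463, adjusted 0.00926), with r = 0.774 without the 2 arrays. After subtraction of group means these 2 values were 0.0276 and 0.0064, so the relation of C1qc to the other chains did not hold within groups. The p-values are 2-sided and adjusted over 4 relations. They belong to the values over all 16 arrays, which include the differences between groups. None is given for the values after subtraction of group means.

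The fourth relation set the mean of the 3 C1q chains beside the macrophage and monocyte list. The C1q mean ran from 9.33 to 9.43 in pregnant TiO2, 9.00 to 9.17 in pregnant PBS, 8.79 to 8.98 in non-pregnant TiO2 and 8.85 to 9.15 in non-pregnant PBS. Pregnant TiO2 arrays were above all others in the C1q mean, though the TiO2 change in pregnant mice was called for none of the chains. How often means of other genes separate in this way was not counted. Both pregnant groups covered a like range of the macrophage list. The part of macrophage number in the C1q level was not tested. Over 16 arrays r was 0.652 and rho 0.529, r was 0.551 without the 2 farthest arrays, and after subtraction of group means r was -0.0143.

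**Figure D3:**
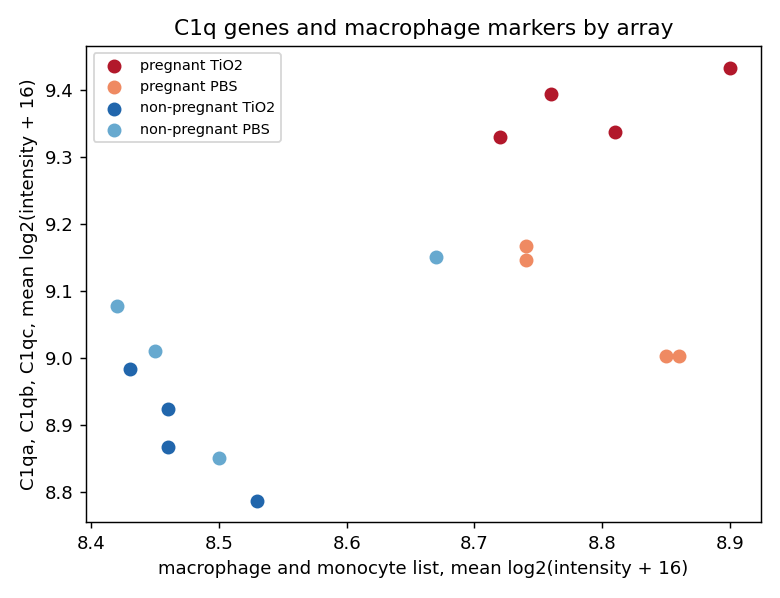
Mean log2 level of C1qa, C1qb and C1qc (vertical) against the mean log2 level of 16 macrophage and monocyte markers (horizontal), 1 point per array. Pregnant TiO2 arrays have a C1q mean of at least 9.33 and pregnant PBS arrays one of at most 9.17, at marker means of 8.72 to 8.90 and 8.74 to 8.86.

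In a wider list of 47 complement genes, 28 were tested, 13 were below the expression filter and 6 had no probe set named here. For pregnancy after TiO2, 6 of 28 were called higher and none lower, where 1.37% of all genes were called higher and 1.88% in either direction. The median of the 28 was 0.31 log2, against 0.03 over all genes. Without the genes described above, 2 of 22 were called, and the median of the 22 was 0.17 log2. Cr2, the receptor for C3d on B cells and follicular dendritic cells, was at 6.43 to 7.03 in pregnant TiO2 and 5.53 to 6.11 in non-pregnant TiO2 lungs. Its change was 1.01 ± 0.22 log2 (limma adjusted p = 0.0288). The non-pregnant TiO2 values of Cr2 were dim, about as low as those of C5ar1 in that group (5.55 to 6.24). Clusterin (Clu), which inhibits the membrane attack complex, was at 11.48 to 11.66 in pregnant TiO2 and 10.72 to 11.23 in non-pregnant TiO2 lungs, a rise of 0.52 ± 0.11 (adjusted p = 0.0302). For both genes the groups did not overlap, which held in the higher direction for 9.56% of all genes.

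Markers of B cells and lymph node venules moved with Cr2. Their mean level per array (7 genes measured of 8) ran from 6.77 to 7.73 in pregnant TiO2 and 7.34 to 7.73 in pregnant PBS, against 5.83 to 7.11 in non-pregnant TiO2 and 7.10 to 7.88 in non-pregnant PBS. All 6 tested markers were above 0 for pregnancy after TiO2, as were 55.6% of all genes, with a median of 0.89 log2 and none called. Cr2 also lay lower after TiO2 in non-pregnant mice, by -0.75 ± 0.22 log2 (adjusted p = 0.299), where those 6 markers had a median of -0.68. The part of B cell content in the Cr2 result was not tested.

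**Figure D4:**
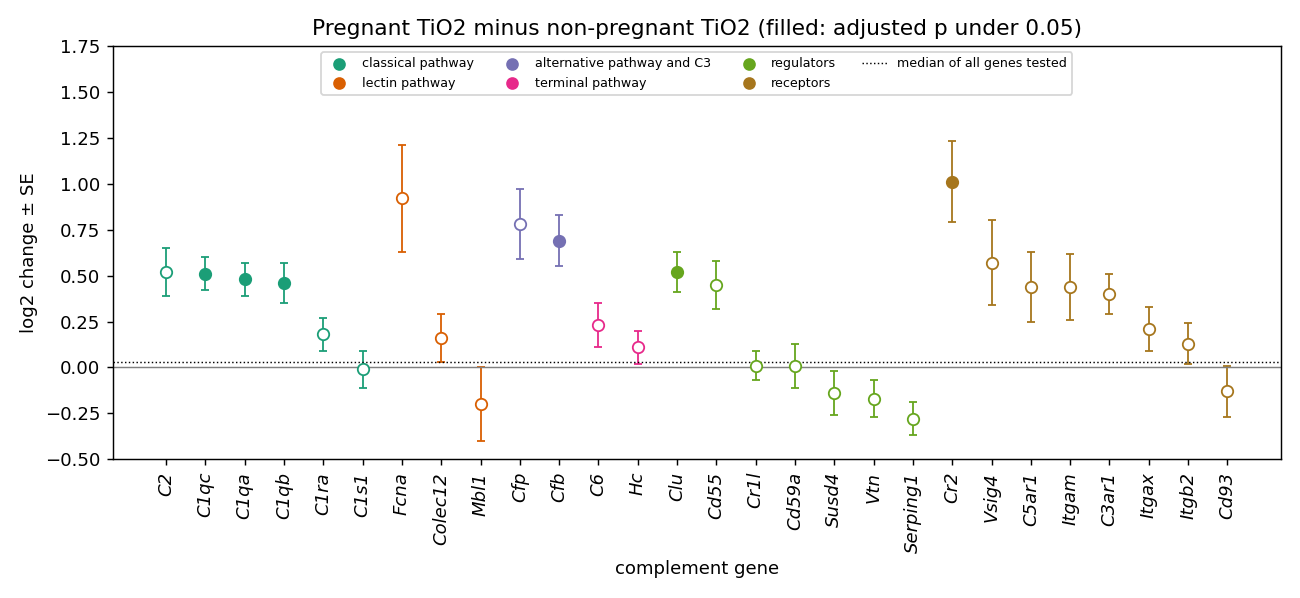
Log2 change ± SE for pregnant TiO2 minus non-pregnant TiO2 in the 28 tested complement genes, coloured by role; filled points have a limma adjusted p under 0.05. The 6 filled points are C1qc, C1qa, C1qb, Cfb, Clu and Cr2, and the dotted line is the median of all genes at 0.03.

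By role, the classical pathway had 3 of 6 tested genes called higher for pregnancy after TiO2, with a median of 0.47 log2. Of all genes 1.37% were called higher there, and the median over all genes was 0.03. The 3 called genes are the C1q chains, which, like Cfb, were picked with earlier results of these data known. C2, the protease that pairs with C4, was at 0.52 ± 0.13 (adjusted p = 0.0564), whereas the C1 proteases C1ra and C1s1 were at 0.18 ± 0.09 and -0.01 ± 0.10. In the alternative pathway Cfb was called of 2 tested, and properdin (Cfp), which stabilises the C3 convertase, was at 0.78 ± 0.19 (adjusted p = 0.0548). Of 7 tested regulators only Clu was called. Of 8 receptors Cr2 was called, and the 3 tested lectin pathway and 2 terminal pathway genes gave no call.

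In the pregnancy average 8 of 28 genes were called higher and 1 lower, where 3.19% of all genes were called higher and 4.42% in either direction. The median of the 28 was 0.24 log2, against 0.01 over all genes. Without the genes described first, 4 of 22 were called higher and 1 lower, with a median of 0.13. Beside the genes above these were Clu (0.49 ± 0.08, adjusted p = 0.00273), Cr2 (0.73 ± 0.15, adjusted p = 0.0124), Itgam (0.51 ± 0.13, adjusted p = 0.0328) and Cfp (0.55 ± 0.14, adjusted p = 0.0337). Itgam is the alpha chain of complement receptor 3 on neutrophils and macrophages. Vitronectin (Vtn), another inhibitor of the terminal complex, fell by 0.26 on the log2 scale (SE 0.07, adjusted p = 0.0435). After PBS alone no complement gene was called for pregnancy. The 8 tested receptor genes were all above 0 there with a median of 0.33, and the smallest p belonged to Clu (0.46 ± 0.11, adjusted p = 0.0726), Itgb2 (0.44 ± 0.11, 0.0884) and Vtn (-0.35 ± 0.10, 0.113).

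For TiO2 in pregnant mice 0 of 28 complement genes were called, 20 were above 0 and the median was 0.13 log2, against 0.00 for all genes. The 6 tested classical pathway genes were all above 0, with a median of 0.27. C1ra, which activates C1s within the C1 complex, was at 9.64, 9.76, 9.65 and 9.78 in pregnant TiO2 and 9.43, 9.27, 9.27 and 9.45 in pregnant PBS lungs, without overlap. Such separation in the higher direction held for 2.05% of all genes. The C1ra change was 0.35 ± 0.09 (limma adjusted p = 0.495). The collectin Colec12 stood at 0.36 ± 0.13 (0.723) and C1s1 at 0.26 ± 0.10 (0.762). In non-pregnant mice 12 of 28 were above 0 with a median of -0.05 and 0 calls. Outside the 6 genes described above, and beside Cr2, the smallest p there were those of the ficolin Fcna (-0.57 ± 0.29, adjusted p = 0.537) and the C1 inhibitor gene Serping1 (0.13 ± 0.09, 0.621). For the interaction 21 of 28 were above 0 with a median of 0.17 and 0 calls, led outside the genes above by Colec12 (0.50 ± 0.18, adjusted p = 0.382), C1ra (0.29 ± 0.13, 0.426) and C2 (0.36 ± 0.18, 0.483).

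The genes whose levels over the 16 arrays were most like these profiles were ranked by Pearson's r among all genes tested, as a description. For the C1q mean they were Cyp1a1 (r = 0.912), Rsph3a (0.871) and Procr (0.862). Cyp1a1, a cytochrome P450 of the aryl hydrocarbon receptor response, averaged 9.46 in pregnant TiO2, 8.72 in pregnant PBS, 8.07 in non-pregnant TiO2 and 8.49 in non-pregnant PBS. After subtraction of group means these 3 values of r were 0.557, 0.351 and 0.334. For Cfb they were AU040972 (0.879), Bpifb1 (0.867) and Agr2 (0.861), with 0.612, 0.742 and 0.68 after subtraction. Bpifb1, a secreted airway protein, averaged 9.95 in pregnant TiO2, 9.42 in pregnant PBS, 8.93 in non-pregnant TiO2 and 9.03 in non-pregnant PBS.

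For C3ar1 the nearest genes were Oas1c (r = 0.859), the leukocyte actin bundling gene Lcp1 (0.848) and B3gnt7 (0.841). Lcp1 averaged 11.22 in pregnant TiO2 and 11.21 in pregnant PBS, against 10.81 in non-pregnant TiO2 and 10.90 in non-pregnant PBS. For C5ar1 they were the Fc receptor Fcgr4 (0.821), Lrrc8d (0.805) and Ddx59 (0.788). Fcgr4 averaged 7.38 in pregnant TiO2, 7.78 in pregnant PBS, 7.04 in non-pregnant TiO2 and 7.15 in non-pregnant PBS.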

How the data were processed

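Lung RNA of 16 samples was measured on 1-colour Affymetrix arrays. The authors deposited linear intensity values for 45101 probe sets on every array. GCOS, MAS5 and RMA are named, per the submitters' processing notes, without versions. No source used here says which of them produced the table. The intensities differ in brightness between arrays (median 32.0 to 56.6), so after removal of 64 control probe sets they were quantile-normalized and log2(value + 16) was taken, which understates changes of dim probe sets. Probe sets above their array's median on at least 4 arrays were kept (23995), and the single-symbol probe set with the highest mean stood for each gene (12369 genes). Symbols came from the platform annotation, updated through a RefSeq table of GRCm38.p6, used for names and gene order only; promoters come from RefSeq's promoter table of that build.

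Groups came from the gestation and source labels, which conflict for non-pregnant PBS replicate 2; it was placed by the stated 4 samples per group. Each array was treated as 1 mouse, and replicate numbers are sample order only. One limma 3.58.1 fit (R 4.3.3) of 4 group means with 12 residual degrees of freedom gave 7 contrasts and an F test, with Benjamini-Hochberg adjustment over all genes at 0.05. The procedure was tested on simulated data. Correlations used 1e+05 permutations. The number of arrays limits the precision.

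The genes, the wider complement list, the marker lists and the tests were chosen with earlier results of these data known. Named beside the 8 genes were complement genes called in any contrast, otherwise up to 3 per contrast by moderated t, and the 3 genes most like each profile. Alternatives were intensities as deposited, trimmed-mean scaling, pseudocounts of 1 and 64, other filters, the mean of all probe sets, only the groups compared, other spread estimates, array weights, the 3 arrays of unlike tissue content left out, the conflicting array as pregnant PBS, and each array left out.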

Additional observations from a re-analysis of the deposited data

Results flagged for a closer look

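C1qb in non-pregnant PBS replicate 2 was at 8.12 log2, while the other 3 arrays of its group lay between 8.58 and 8.65. Its gap to the nearest of them was 0.884 of the group's whole range. This is the array whose labels conflict. It was the only 1 of 24 gene and group combinations to stand apart in this way, and chance gives about 1 in 20 such groups. With this array counted as pregnant PBS, C1qb was at 0.46 log2 for pregnancy after TiO2 (limma adjusted p = 0.0646), against 0.46 (adjusted p = 0.0466) with it in its own group.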

How the results depend on the processing

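Of 1151 recomputed values of single genes, 1055 kept their direction and their side of the threshold, 60 lost a call, 4 gained one and 32 changed sign. The number of called genes among the 6 was 0 under every setting for both TiO2 comparisons, their average and difference, and pregnancy after PBS. For pregnancy after TiO2 it was 4, and 0 with intensities as deposited; for the pregnancy average it was 4, and 0 as deposited, 2 with trimmed-mean scaling, 2 without a filter and 1 with the conflicting array as pregnant PBS; for the F test it was 3, and 0 as deposited, 0 with that array as pregnant PBS and 5 with array weights. Leaving out 1 array gave 1 to 4, 2 to 5 and 0 to 4 calls in these 3 tests. In the pregnancy average 2 remained without pregnant PBS replicate 1, 2 or non-pregnant TiO2 replicate 1, 3 or non-pregnant PBS replicate 4. The change of C1qc after TiO2 kept its call in 27 of 28 settings, C1qa and Cfb in 22 each and C1qb in 11. Over all genes, pregnancy after TiO2 called 233, against 21 as deposited, 141 without a filter, 104 with the conflicting array as pregnant PBS, 483 in a fit of only these groups, 428 without the 3 arrays and 1505 with array weights.

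Sign changes concerned uncalled values, and their cause was not tested. As deposited, TiO2 in non-pregnant mice gave C1qa 0.04, C1qb 0.12, C1qc 0.06 and C5ar1 0.04, the interaction gave C3ar1 -0.08 and C5ar1 -0.21, and pregnancy after PBS gave C1qa 0.10. The C5ar1 interaction was -0.01 with a pseudocount of 64, -0.31 with the mean of all probe sets and -0.10 without the 3 unlike arrays. The probe set mean also gave C5ar1 0.17 for TiO2 in non-pregnant mice and 0.02 for TiO2 on average. Without the 3 arrays TiO2 in non-pregnant mice gave C1qb 0.03 and Cfb -0.05. With the conflicting array as pregnant PBS, C5ar1 was 0.04 for TiO2 in pregnant mice, C3ar1 -0.01 for TiO2 in non-pregnant mice and C1qb -0.10 for pregnancy after PBS. Array weights gave C5ar1 0.02 for TiO2 in pregnant mice. With 1 array left out, C5ar1 ran from -0.15 to 0.21 for the interaction, -0.23 to 0.13 for TiO2 in pregnant mice, -0.19 to 0.04 in non-pregnant mice and -0.16 to 0.02 on average, and C3ar1 from -0.02 to 0.11 for TiO2 in non-pregnant mice.

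No paired analysis was possible because the labels give no replicate numbers. C5ar1 is limited by its dim signal, under the array median on some arrays.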
